A study of Rattus norvegicus with 10 samples.

Results

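The immediate early genes examined here are Fos, Fosb, Jun, Junb, Egr1, Egr2, Egr3, Atf3, Nr4a1 and Dusp1, 10 of the 10411 genes named on the array. They were chosen by name, and every probe set whose platform annotation gave 1 of these symbols was taken, which gave 15 of 15866 probe sets. Each gene had at least 1 probe set, and 13 probe sets, covering all 10 genes, were bright enough to be tested. The samples came from mammary glands of female rats (Sprague-Dawley, postnatal day 50) raised on 1 of 3 diets. There were 4 arrays of the SPI diet (replicates 2, 3, 4 and 5), 3 of the GEN diet (replicates 1, 3 and 5) and 3 of the CAS diet (replicates 1, 2 and 3). GEN is the genistein diet, genistein being a soy isoflavone; SPI and CAS are read here as soy protein isolate and casein, from knowledge of the study and not from the labels, with CAS as the reference diet. Each array carried RNA of 2 pooled animals per the design text and 9 of the 10 labelling protocols. The protocol of CAS 3 gives 7 animals and names no gland. Differences from CAS of several named genes and of the lists are therefore given without CAS 3 too. The labels also speak of parallel targets made from 1 pool without saying which arrays share a pool. The p-values here therefore measure the spread between these arrays, part of which may be technical. The source label names epithelial cells, while the protocol describes the gland, so the samples are treated as gland tissue here.

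Immediate early genes are transcribed within minutes of a stimulus, from factors already present in the cell, and their mRNAs are short-lived. Growth factor and stress signals reach them through MAP kinases, which act on the serum response factor at the CArG box of their promoters and on CREB at cyclic AMP response elements. The FOS and JUN proteins pair to form the AP-1 transcription factor, the EGR proteins are zinc finger factors, and DUSP1 is a phosphatase that switches MAP kinases off again. Removing or dissociating a tissue is itself known to induce these genes, which is why their level from pool to pool is looked at as a possible trace of tissue handling. The labels record no time between death and extraction for any array, so a difference in handling could not be tested directly.

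Promoter sequences of 6 of the 10 genes were found in the RefSeq table used here (Fosb, Junb, Egr1, Egr2, Nr4a1 and Dusp1), as windows of 250 bases before to 50 bases after the start site. The windows of Egr1 and Egr2 are shown because these were the 2 genes whose signals went together most closely, and that of Dusp1 for its full cyclic AMP response element. Capitals mark CArG boxes and the half-site TGACG or its reverse complement CGTCA.
Egr1 promoter, GRCr8, chr18:26736828-26737127, strand +: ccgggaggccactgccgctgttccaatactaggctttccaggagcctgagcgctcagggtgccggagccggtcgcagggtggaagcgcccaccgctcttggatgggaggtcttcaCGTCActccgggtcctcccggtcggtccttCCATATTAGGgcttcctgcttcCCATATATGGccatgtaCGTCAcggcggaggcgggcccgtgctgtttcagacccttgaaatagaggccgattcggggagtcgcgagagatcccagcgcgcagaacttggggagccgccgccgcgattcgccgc
Egr2 promoter, GRCr8, chr20:21054392-21054691, strand -: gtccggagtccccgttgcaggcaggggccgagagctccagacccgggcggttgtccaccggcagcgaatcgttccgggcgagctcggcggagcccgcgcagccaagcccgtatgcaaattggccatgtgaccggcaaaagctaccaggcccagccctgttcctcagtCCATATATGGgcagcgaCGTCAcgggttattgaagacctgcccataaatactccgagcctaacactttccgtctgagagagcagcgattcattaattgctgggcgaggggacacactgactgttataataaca
Dusp1 promoter, GRCr8, chr10:17184603-17184902, strand +: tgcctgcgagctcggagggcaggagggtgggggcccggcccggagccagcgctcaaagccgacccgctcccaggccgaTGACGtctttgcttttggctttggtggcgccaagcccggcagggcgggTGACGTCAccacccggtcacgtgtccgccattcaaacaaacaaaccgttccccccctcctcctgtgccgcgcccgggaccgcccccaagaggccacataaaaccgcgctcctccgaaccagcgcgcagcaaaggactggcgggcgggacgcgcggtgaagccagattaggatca
Egr1 and Egr2 both held the CArG box CCATATATGG, with its first base at position -83 from the start site, and both held CGTCA at position -66. Egr1 held a further CArG box, CCATATTAGG, at position -105 and a further CGTCA at -135. CArG boxes were found in 2 of the 6 windows, and in 1.64% of all 33469 rat promoter windows of 300 bases. The half-site, counted on both strands, was found in 5 of the 6 windows (in all but Fosb) and in 21.2% of all windows. Dusp1 was the only 1 of the 6 to hold the full element TGACGTCA, at -124, which overlaps the half-site matches at -124 and -121 and which 1.83% of all windows held. These matches describe letters in a window, not occupied sites, and a link between them and the signals was not tested.

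The values were MAS5 signals, which are linear intensities scaled to a common level per array. The median signal of the arrays ran from 222.8 to 256.7. Signals of different probe sets depend on their probes and are not set against each other as transcript levels here. Of the mammary markers, 5 of 5 milk protein and 8 of 8 luminal epithelial genes on the array were above the filter on dim probe sets, and of the colon epithelial markers, looked at because the design text also mentions colon, 1 of 6. Summed signals of the tested macrophage markers (8 genes) ran from 5382 to 10918 on SPI, from 6477 to 12403 on GEN and from 7345 to 19513 on CAS, and those of skeletal muscle (3 genes) from 1082 to 1695 on SPI, from 1544 to 2003 on GEN and from 1446 to 4464 on CAS. The highest macrophage sum was on CAS 3 and the highest skeletal muscle sum on CAS 1. Their part in the values below was not tested. In bulk tissue, fewer cells of a type and less RNA per cell cannot be told apart.

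All arrays carried strong signals of most of these genes. For 8 of the 10 genes (all but Egr2 and Egr3) the brightest probe set was above 3000 on every one of the 10 arrays. The lowest of these 8 genes' signals was 3828, of Atf3 on SPI 5, and the highest was 19322, of Egr1 on CAS 3. No pool of any diet stood out as lacking the immediate early transcripts.

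**Figure D1:**
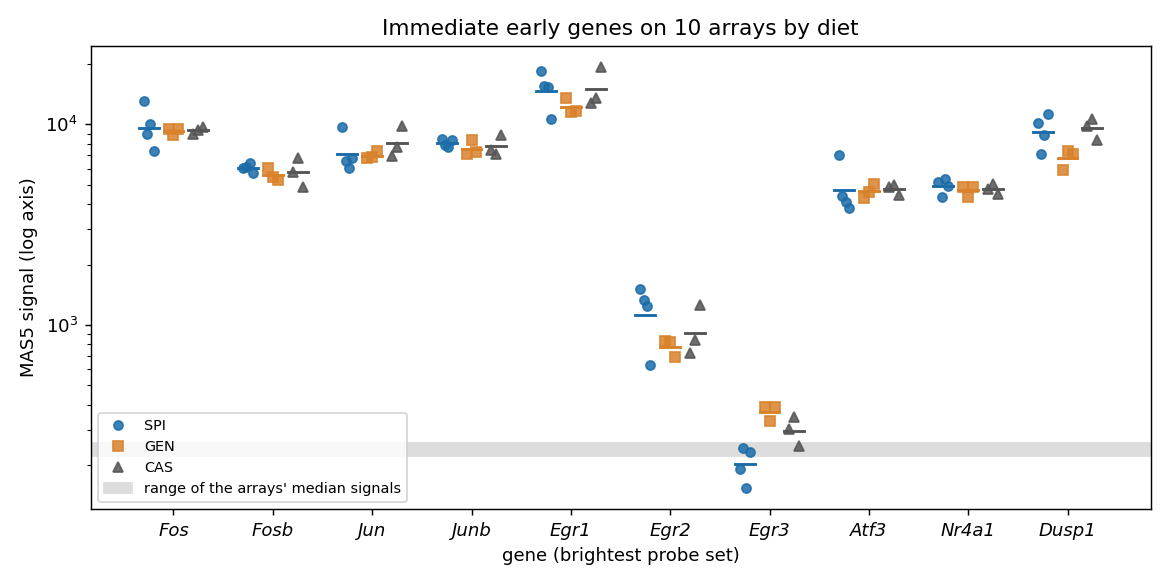
MAS5 signal on a log axis of the brightest probe set of each of the 10 genes, 1 point per array, grouped by diet (4 SPI, 3 GEN and 3 CAS arrays); short lines are means of log2 signal and the grey band spans the arrays' median signals, 222.8 to 256.7. The points of the 3 diets lie over each other for most genes, while the SPI points of Egr3 lie below the others and the GEN points of Dusp1 below those of CAS.

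Fos, the founding AP-1 subunit, had signals of 13008, 8932, 9997 and 7347 on SPI 2, 3, 4 and 5, of 9502, 8831 and 9534 on GEN 1, 3 and 5, and of 8981, 9356 and 9699.6 on CAS 1, 2 and 3. The GEN and CAS arrays fell within a narrow band, and SPI 2 and SPI 5 held the highest and the lowest value of all. The log2 difference was 0.04 ± 0.16 (SE) for SPI against CAS and -0.01 ± 0.17 for GEN against CAS, with adjusted p of 0.987 and 0.990 in limma. The 95% intervals were -0.30 to 0.38 and -0.37 to 0.35. A dim probe set of Fos gave another picture. Its signals were 132.9, 51.7, 54.5 and 177.8 on SPI 2, 3, 4 and 5, 20.1, 32.7 and 75.5 on GEN 1, 3 and 5, and 27.8, 33.9 and 48.5 on CAS 1, 2 and 3. All SPI arrays were above all CAS arrays there, but the probe set lay below the filter and was not tested in the main fit. With no filter all 15 member probe sets were tested in limma, and 0 passed the adjusted threshold for SPI against CAS. At an unadjusted p under 0.05 there were then 2 of the 15. No share over all probe sets is given for that fit, so this count has no background beside it. In the main fit 1 of 13 and 4.82% of all probe sets were past that threshold. The correlation between the probe sets of Fos over the 10 arrays was 0.07, so they did not describe the same differences.

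Fosb, which codes for another FOS protein, ran from 5746 to 6392 on SPI, from 5262 to 6040 on GEN and from 4847 to 6778 on CAS. Junb, a JUN protein that can restrain JUN, ran from 7696 to 8416 on SPI, from 7109 to 8318 on GEN and from 7079 to 8871 on CAS. For both genes the arrays of the 3 diets overlapped, and the log2 differences lay between -0.04 and 0.12 in the 3 comparisons. CAS 3 had the lowest Fosb and the highest Junb signal of all arrays. Without it the Fosb differences from CAS were -0.050 for SPI and -0.17 for GEN, and those of Junb 0.15 for SPI and 0.052 for GEN. With all arrays the 95% intervals of Junb over the 3 comparisons lay between -0.30 and 0.34.

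Jun, the main partner of FOS, was measured by 3 probe sets that went together, with correlations of 0.84 to 0.94 over the 10 arrays. The brightest had 9667, 6571, 6035 and 6807 on SPI 2, 3, 4 and 5, 6815, 6843 and 7331.5 on GEN 1, 3 and 5, and 6953, 7668 and 9857 on CAS 1, 2 and 3. SPI 2 and CAS 3 were high and the other 8 arrays lay between 6035 and 7668. Its log2 difference was -0.18 ± 0.16 (SE) for SPI against CAS (adjusted p = 0.987 in limma) and -0.21 ± 0.17 for GEN against CAS (adjusted p = 0.862). The other 2 probe sets gave -0.11 and -0.22 for SPI and -0.23 and -0.18 for GEN. Without CAS 3 the brightest gave -0.031 for SPI and -0.062 for GEN against CAS. The names of 2 of the 3, the brightest included, mark probe sets that can also bind related transcripts.

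Atf3, a stress-induced factor of the CREB family that can pair with JUN, had 7014 on SPI 2. The other SPI arrays, 3, 4 and 5, had 4394, 4110 and 3828, the GEN arrays 4312, 4604 and 5055, and the CAS arrays 1, 2 and 3 had 4861.5, 4982.5 and 4428. SPI 2 stood above the other 9 arrays, and the diets otherwise overlapped. The log2 difference was -0.02 ± 0.18 (SE) for SPI against CAS and -0.03 ± 0.19 for GEN against CAS, with adjusted p of 0.993 and 0.978 in limma.

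Among the EGR genes, Egr1 and Egr2 were high on the same arrays. Egr1, the factor that responds to growth signals in most cell types, had 18467.5, 15523, 15423 and 10612 on SPI 2, 3, 4 and 5, 13569.9, 11541 and 11654 on GEN 1, 3 and 5, and 12760.5, 13582 and 19322 on CAS 1, 2 and 3. The diets overlapped, with SPI 5 the lowest array, CAS 3 the highest, and GEN 3 and GEN 5 below every CAS array. The log2 difference was -0.02 ± 0.18 (SE) for SPI against CAS (adjusted p = 0.993 in limma), -0.29 ± 0.19 between GEN and CAS (adjusted p = 0.846) and 0.27 ± 0.18 between SPI and GEN (adjusted p = 0.713). Without CAS 3, which had the highest signal, the differences from CAS were 0.16 for SPI and -0.11 for GEN.

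Egr2, known for its role in myelinating Schwann cells and in lymphocytes, had 1509, 1331, 1238 and 627.3 on SPI 2, 3, 4 and 5, 826.5, 825.5 and 689.8 on GEN 1, 3 and 5, and 727.8, 838.4 and 1253 on CAS 1, 2 and 3. SPI 2, 3 and 4 and CAS 3 made a high set, with a gap between 838.4 and 1238 to the other 6 arrays, so the high set crossed the diets. The log2 difference was 0.29 ± 0.27 (SE) for SPI against CAS, -0.23 ± 0.29 between GEN and CAS and 0.52 ± 0.27 between SPI and GEN, with adjusted p of 0.987, 0.899 and 0.648 in limma. Without SPI 5 the difference of SPI against GEN was 0.80, and that of SPI against CAS 0.57. Without CAS 3 the differences from CAS were 0.52 for SPI and -0.0061 for GEN. A dim probe set of Egr2 ran from 46.9 to 134.5 and was not tested in the main fit.

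Egr3, which acts downstream of NFAT and MAP kinase signals in lymphocytes and muscle spindles, had 192, 242.1, 153.3 and 231.6 on SPI 2, 3, 4 and 5. It had 390.4, 332.1 and 387.5 on GEN 1, 3 and 5, and 303.7, 347.3 and 247.6 on CAS 1, 2 and 3. Every SPI array was below every GEN and every CAS array, the nearest pair being SPI 3 at 242.1 and CAS 3 at 247.6. The mean signals were 204.75 ± 40.5 on SPI (SD, n = 4), 370.0 ± 32.9 on GEN (SD, n = 3) and 299.53 ± 49.98 on CAS (SD, n = 3). The log2 difference was -0.87 ± 0.20 (SE) for SPI against GEN, with a 95% interval of -1.30 to -0.44, an unadjusted p of 0.000737 and an adjusted p of 0.400 in limma. For SPI against CAS it was -0.56 ± 0.20 (adjusted p = 0.954) and for GEN against CAS 0.31 ± 0.21 (adjusted p = 0.846), or -0.69 and 0.18 without CAS 3. No difference of Egr3 passed the adjusted threshold, and over all settings tried the adjusted p of SPI against GEN ran from 0.293 to 0.998. The signals lay near the filter, where the lowest mean signal tested was 162, so the sizes are uncertain.

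Markers of the milk-producing epithelium were also high on the GEN arrays. The summed signal of the 5 tested milk protein genes ran from 22920 to 58435 on SPI, from 68931 to 90977 on GEN and from 26876 to 66932 on CAS. That of the 8 luminal genes ran from 6882 to 13369 on SPI, from 16524 to 21936 on GEN and from 10692 to 19801 on CAS. The milk protein sum of every GEN array was above that of every other array, while the luminal sums of GEN and CAS overlapped. SPI 4, with the lowest Egr3 signal, had the lowest sum of both lists. Not every array followed that order. CAS 2, with an Egr3 signal of 347.3, had a milk protein sum of 26876 and a luminal sum of 10692. SPI 2, with an Egr3 signal of 192, had sums of 58435 and 13369. The part of these markers in the Egr3 values was not tested.

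**Figure D2:**
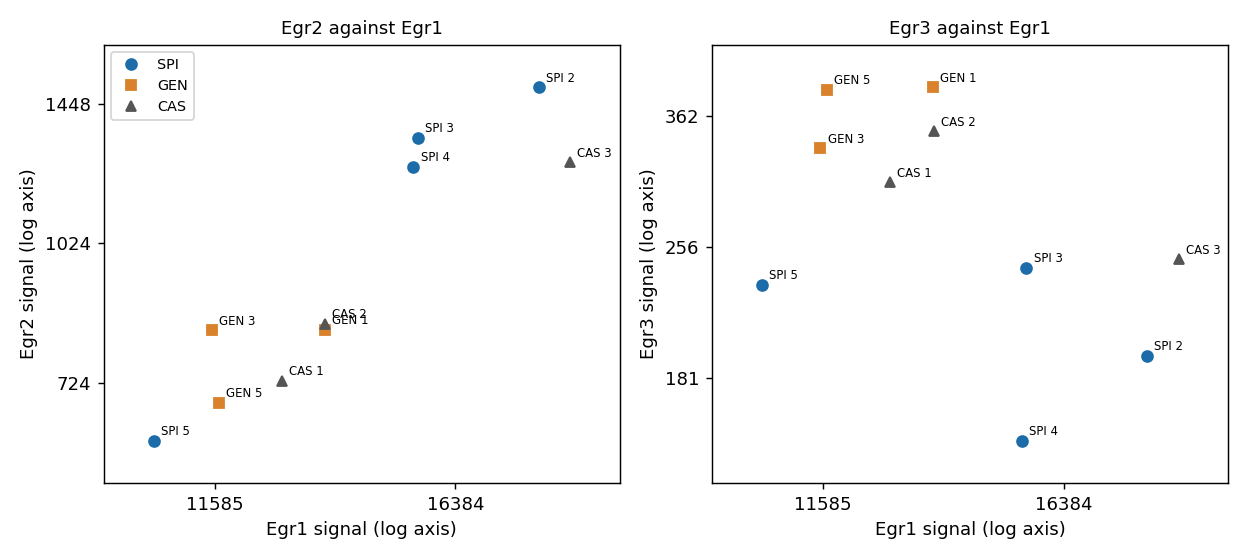
Egr2 (left) and Egr3 (right) signal against Egr1 signal on log axes, 1 labelled point per array, coloured by diet. Egr2 is high on the arrays where Egr1 is high, SPI 2, SPI 3, SPI 4 and CAS 3, whereas the 4 SPI points of Egr3 lie below those of GEN and CAS at any level of Egr1.

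Nr4a1, an orphan nuclear receptor induced by the same signals, ran from 4362 to 5353 on SPI, from 4349 to 4859 on GEN and from 4469 to 5033 on CAS. The highest array was 1.23 times the lowest, the smallest such ratio among the 13 probe sets. Its 95% intervals over the 3 comparisons lay between -0.28 and 0.32 on the log2 scale.

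Dusp1, the MAP kinase phosphatase, had 5917, 7341 and 7110.2 on GEN 1, 3 and 5 at its brighter probe set. It had 10184.5, 7097, 8802 and 11269 on SPI 2, 3, 4 and 5, and 9849.6, 10580.5 and 8389 on CAS 1, 2 and 3. All GEN arrays were below all CAS arrays, and SPI 3 lay among the GEN arrays. The log2 difference was -0.50 ± 0.17 (SE) for GEN against CAS, with an unadjusted p of 0.0104 and an adjusted p of 0.825 in limma, and 0.44 ± 0.16 for SPI against GEN, with an unadjusted p of 0.0138 and an adjusted p of 0.558. For SPI against CAS it was -0.06 ± 0.16 (adjusted p = 0.987). Without CAS 3 the differences from CAS were -0.59 for GEN and -0.15 for SPI. The second, dimmer probe set of Dusp1 differed in the opposite direction, by 0.49 ± 0.50 for GEN against CAS (adjusted p = 0.878 in limma) and by -0.88 ± 0.47 for SPI against GEN (adjusted p = 0.653). The correlation between the probe sets over the 10 arrays was 0.03.

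Over all members, 0 of the 13 tested probe sets differed between diets at an adjusted p under 0.05 in limma, in any of the 3 comparisons, where 0.00% of all 9520 probe sets did in each. At an unadjusted p under 0.05 there was 1 for SPI against CAS (Egr3), where 4.82% of all probe sets were past that threshold, 1 for GEN against CAS (the brighter Dusp1 probe set), where 5.89% were, and 2 for SPI against GEN (Egr3 and the same Dusp1 probe set), where 7.95% were. These are counts of 1 or 2 of 13, near the background. The groups did not overlap for 1 of the 13 in each comparison, where 4.60%, 11.1% and 8.50% of all probe sets did not. The moderated F-test over the 3 diets gave 0 adjusted calls and 2 of 13 at an unadjusted p under 0.05, Egr3 and Dusp1, where 6.40% of all probe sets were past it and 0.00% passed adjusted.

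The median log2 difference of the 13 was -0.02 between SPI and CAS, -0.04 between GEN and CAS and 0.07 between SPI and GEN, where the medians of all probe sets were -0.01, -0.01 and 0.00. Of the 13, 5 were on the higher side in SPI against CAS, 2 in GEN against CAS and 10 in SPI against GEN, where 47.7%, 47.9% and 49.2% of all probe sets were. Without CAS 3 the counts against CAS were 6 for SPI and 5 for GEN, where 51.5% and 51.2% of all probe sets were on the higher side. The 13 are not independent, since Jun has 3 of them and Dusp1 has 2. The comparisons with CAS share its 3 arrays.

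**Figure D3:**
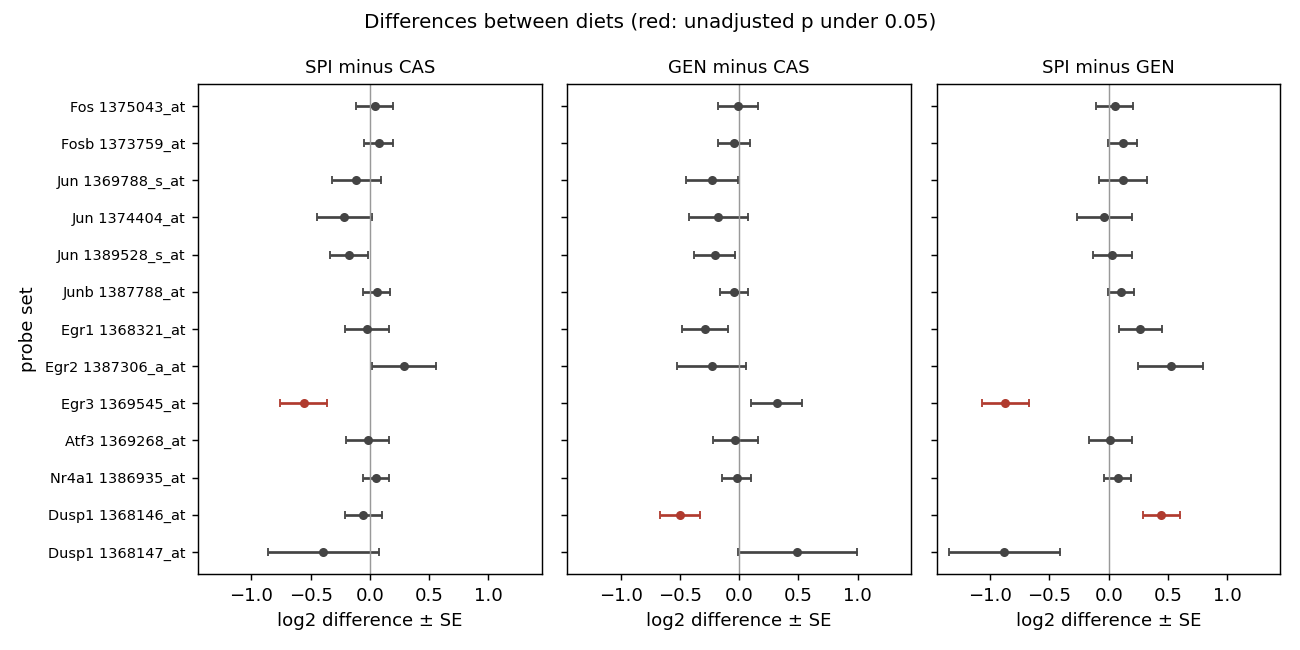
Log2 difference with its standard error for the 13 tested probe sets in SPI minus CAS, GEN minus CAS and SPI minus GEN, with points in red at an unadjusted p under 0.05. Most points lie within 0.3 of 0, and Egr3 and the brighter Dusp1 probe set are the red points, none of which passed the adjusted threshold.

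The question of handling was followed by the spread between arrays of the same diet. The within-diet standard deviation was 0.25 in the median of the 13 probe sets and 0.25 in the median of all 9520. Bright probe sets vary less on such arrays, so the deviation was also divided by the one the fit's intensity trend gives for that signal. This ratio was 1.39 in the median of the members and 1.003 in the median of all probe sets. Among the 952 of 9520 probe sets with the highest ratio were 5 of the 13: the dimmer Dusp1 probe set at 3.74, Egr2 at 1.99, Jun at 1.87 and 1.84 and Egr1 at 1.81. Nr4a1 at 0.59, Junb at 0.69, Fosb at 0.82 and Egr3 at 0.90 varied less than the trend. The count of 5 was 2 without SPI 2 and 3 without SPI 5 or without CAS 3, and 2 with each array centred on its median.

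A few arrays held most of the extreme values. SPI 2 had the highest signal of 3 of the 10 genes (Fos, Egr2 and Atf3) and lay above the gene's mean for 9, all but Egr3. Its median deviation over the 10 genes was 0.33 on the log2 scale, where the median over all tested probe sets on that array was 0.04. CAS 3 had the highest signal of 3 genes (Jun, Junb and Egr1), with deviations of 0.42, 0.18 and 0.47, but the lowest of Fosb, and its median deviation was 0.01. SPI 5 had the lowest signal of 4 genes (Fos, Egr1, Egr2 and Atf3) and the highest of Dusp1, with a median deviation of -0.17. The other 7 arrays had median deviations between -0.10 and 0.07. Both the highest and the lowest array were thus of the SPI diet, and no array was extreme for all 10 genes.

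**Figure D4:**
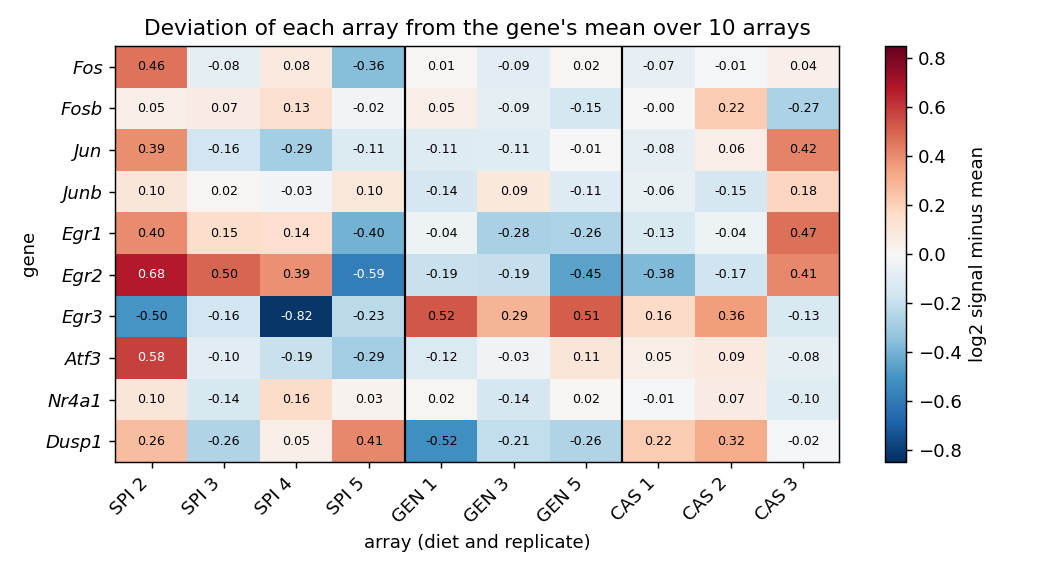
Log2 signal of each array minus the gene's mean over the 10 arrays, for the brightest probe set of the 10 genes, with arrays ordered by diet (SPI, GEN, CAS) and red above and blue below the mean. SPI 2 is red for Fos, Jun, Egr1, Egr2 and Atf3, SPI 5 is blue for Fos, Egr1, Egr2 and Atf3, and the row of Egr3 is blue on the SPI arrays.

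Whether the genes were high on the same arrays was tested against Fos for the other 9 genes. Over the 10 arrays the Pearson correlation with Fos was 0.82 for Atf3 (permutation p = 0.0141, adjusted p = 0.0422 over 9 relations), 0.72 for Egr1 (permutation p = 0.0114, adjusted 0.0422) and 0.70 for Egr2 (permutation p = 0.00825, adjusted 0.0422). The Spearman correlations were 0.36 for Atf3 (permutation p = 0.311, adjusted 0.560), 0.68 for Egr1 (permutation p = 0.0352, adjusted 0.316) and 0.56 for Egr2 (permutation p = 0.0977, adjusted 0.342). Without SPI 2 and SPI 5, the arrays farthest from the median of Fos, r was -0.36, 0.46 and 0.28, so these relations rested on those arrays. The other 6 genes had r between -0.29 and 0.57, and 0 of them passed the adjusted threshold by Pearson or by Spearman permutation. The 3 Pearson calls were lost without SPI 2, SPI 5, GEN 3 or CAS 1, and 4 genes passed without SPI 4. They were also lost under quantile normalization, under median centring and for deviations from the diet means, although r of those deviations was 0.83 for Atf3, 0.78 for Egr1 and 0.75 for Egr2.

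Egr1 and Egr2 had the highest correlation of all 45 pairs of the 10 genes, a set of pairs looked at after the values were seen. Pearson's r was 0.91 (permutation p = 0.000300, adjusted p = 0.0135 over 45 pairs) and Spearman's rho 0.93 (permutation p = 0.000290, adjusted 0.0130). It was 0.90 without SPI 2 and CAS 3, the arrays farthest from the median of Egr1. Because 4 arrays lay above the gap in Egr2, r was also taken over the other 6 arrays, where it was 0.75 (exact permutation p = 0.0861). No other pair passed the adjusted threshold by Pearson permutation. Egr3 had r of -0.65 with Egr2 (permutation p = 0.0438, adjusted 0.378) and a Spearman correlation of -0.42 (permutation p = 0.232, adjusted 0.828), and with Egr1 r of -0.51 (permutation p = 0.136, adjusted 0.510) and -0.36 by Spearman (permutation p = 0.313, adjusted 0.828), none of which passed. Of the 45 pairs, 8 had r over 0.5 and 4 under -0.5, with a median of 0.11.

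The 3'/5' signal ratio of the beta-actin control probe sets was taken as a measure of RNA integrity, which handling can also affect. What part of the ratio came from the labelling was not tested. A high ratio means that less signal came from the 5' end. It was 4.67, 5.22, 7.77 and 2.94 on SPI 2, 3, 4 and 5, 5.15, 3.74 and 2.83 on GEN 1, 3 and 5, and 5.04, 4.06 and 4.70 on CAS 1, 2 and 3. SPI 4 was the highest, and SPI 5 and GEN 5 were the lowest. SPI 2, on which Fos, Egr2 and Atf3 were highest, lay in the middle. With the log2 ratio, 0 of the 10 genes' brightest probe sets correlated at an adjusted permutation p under 0.05, by Pearson or Spearman, and 1 did at an unadjusted Pearson p under 0.05. That was Egr2 with r = 0.65 (permutation p = 0.0422, adjusted 0.320 over 10 relations), a Spearman correlation of 0.58 (permutation p = 0.0883, adjusted 0.358) and r = 0.56 without SPI 4 and GEN 5. Egr1 had r = 0.60 (permutation p = 0.0641, adjusted 0.320), a Spearman correlation of 0.58 (permutation p = 0.0873, adjusted 0.358) and r = 0.62 without those arrays. The same ratio of the GAPDH control probe sets ran from 1.18 on GEN 3 to 2.91 on SPI 4. It was not set against the signals.

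The dimmer Dusp1 probe set went with the beta-actin ratio closely. Its signals were 1159.8, 749.8, 336.9 and 2219.8 on SPI 2, 3, 4 and 5, 1143.7, 2323 and 1708 on GEN 1, 3 and 5, and 997.9, 1159.7 and 1417 on CAS 1, 2 and 3. The lowest was on SPI 4, where the actin ratio was highest, and the 3 highest were on GEN 3, SPI 5 and GEN 5, where it was lowest. When all 13 tested probe sets were set against the ratio, a choice made after the values were seen, this was the only 1 past the threshold, with Pearson r = -0.89 (permutation p = 0.000860, adjusted p = 0.0112 over 13 relations) and a Spearman correlation of -0.89 (permutation p = 0.00125, adjusted 0.0162). Without SPI 4 and GEN 5 r was -0.84, and for deviations from the diet means it was -0.88. With the ratio as a covariate in the fit, its difference for GEN against CAS was 0.06 in place of 0.49 and for SPI against GEN -0.32 in place of -0.88. Egr2 moved to 0.32 in place of 0.52 for SPI against GEN and to -0.078 in place of -0.23 for GEN against CAS. Egr1 moved to 0.15 in place of 0.27 for SPI against GEN and to -0.052 in place of -0.024 for SPI against CAS. The brighter Dusp1 probe set had r = -0.12 with the ratio (permutation p = 0.745, adjusted 0.876 over 13 relations) and a Spearman correlation of -0.32 (permutation p = 0.369, adjusted 0.552). Its r was -0.52 without SPI 4 and GEN 5 and -0.62 for deviations from the diet means. Within diets this probe set thus tended to be lower where the ratio was higher, but not on every array. SPI 4, with the highest ratio, had 8802 at this probe set, above SPI 3 with 7097. With the covariate its difference was 0.56 between SPI and GEN and -0.59 between GEN and CAS.

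**Figure D5:**
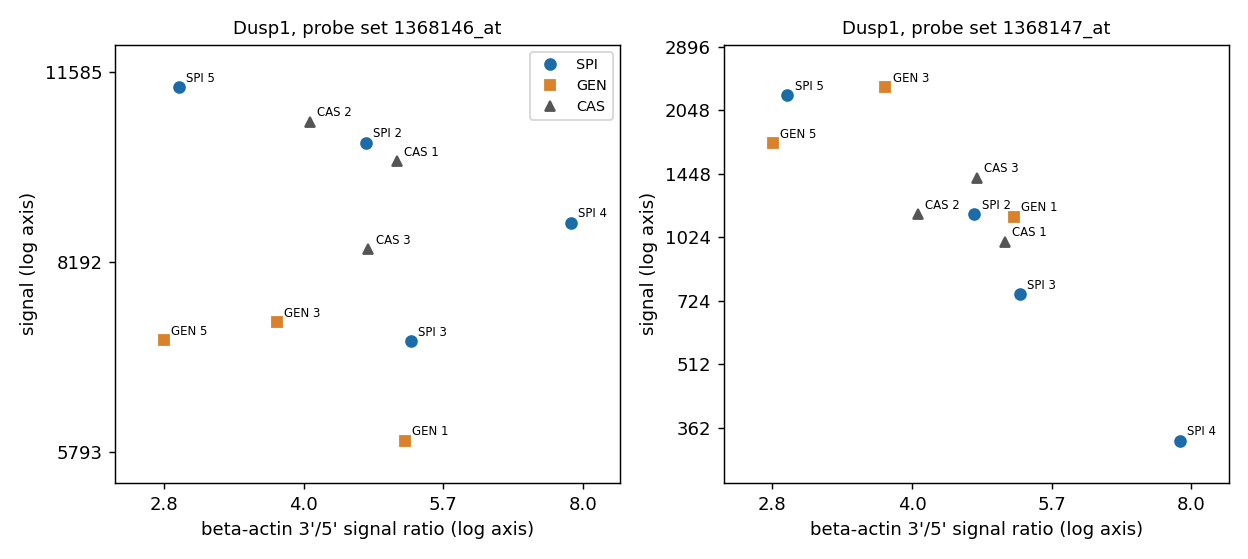
Signal of the brighter (left) and the dimmer (right) Dusp1 probe set against the beta-actin 3'/5' ratio, on log axes, 1 labelled point per array, coloured by diet. The right panel falls with the ratio (r = -0.89), with SPI 4 at 336.9 at the far end, and in the left panel r over all arrays is -0.12, with -0.62 for deviations from the diet means, and the 3 GEN points lie below the 3 CAS points.

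Lists of neighbouring genes were read by their counts. Of the other immediate early genes, 29 were tested of 31 on the array. At an unadjusted p under 0.05, 1 of them was higher and 1 lower between SPI and CAS, where 1.53% and 3.29% of all probe sets were. Between GEN and CAS 1 was higher and 4 were lower, where 2.70% and 3.19% of all probe sets were. Between SPI and GEN 3 were higher and 1 lower, where 3.70% and 4.25% were. The adjusted calls in limma were 0. The median log2 difference of the list was 0.00, -0.13 and 0.11. Klf4, a zinc finger factor of epithelia, had the smallest p for SPI against CAS at -0.38 ± 0.15 (SE). Cebpd came next, in the other direction, at 0.43 ± 0.18 (adjusted p = 0.987 each in limma). Klf2, a factor of the endothelium, had the smallest p for GEN against CAS at -0.50 ± 0.17. Klf4 came next there at -0.43 ± 0.16 (adjusted p = 0.825 each in limma). Rhob, a small GTPase, and Nfil3, a bZIP repressor, led SPI against GEN at 0.34 ± 0.11 and 0.41 ± 0.14 (adjusted p = 0.558 each). Without CAS 3 the counts were 0 higher and 2 lower between SPI and CAS, where 1.83% and 2.58% of all probe sets were. Between GEN and CAS they were 1 higher and 1 lower, where 2.39% and 2.01% were. The medians were then -0.064 and -0.13. Klf4 was then at -0.50 for SPI and -0.55 for GEN against CAS. Cebpd was at 0.21 for SPI and Klf2 at -0.37 for GEN against CAS.

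The 5 other AP-1 family genes that were tested had medians of 0.00, 0.26 and -0.28, and Fosl2 was at 0.60 ± 0.24 (SE) for GEN against CAS (adjusted p = 0.825 in limma). Feedback inhibitors, of which 11 were tested, had medians of 0.09, -0.03 and 0.15. Zfp36l1, which speeds the decay of short-lived mRNAs, was at 0.28 ± 0.13 for SPI against CAS and 0.31 ± 0.13 for SPI against GEN (adjusted p = 0.987 and 0.587). The 10 tested upstream kinases and factors had medians of 0.07, -0.05 and 0.04, with Creb1 at 0.92 ± 0.32 for GEN against CAS (adjusted p = 0.825). The 13 hypoxia response genes had medians of 0.07, 0.11 and -0.09. At an unadjusted p under 0.05 in limma, 1 AP-1 family gene and 1 upstream gene were higher for GEN against CAS, where 2.70% of all probe sets were. Of the feedback inhibitors 1 was higher for SPI against CAS, where 1.53% were. For SPI against GEN 2 feedback inhibitors and 1 hypoxia gene, Hk1, were higher, where 3.70% were. With all arrays, 0 genes in these 4 lists were lower at that threshold, and none had an adjusted call in limma. Without CAS 3 the medians of SPI against CAS were -0.16 for the AP-1 family, -0.0062 for the feedback inhibitors, 0.013 for the upstream genes and -0.058 for hypoxia. Those of GEN against CAS were -0.092, -0.18, -0.026 and -0.028, and Fosl2 was at 0.38. Zfp36l1 was then at 0.24 for SPI against CAS. At an unadjusted p under 0.05 in limma, 1 hypoxia gene was then lower for SPI against CAS, where 2.58% of all probe sets were. For GEN against CAS 1 upstream gene was higher and 1 feedback inhibitor lower, where 2.39% and 2.01% were. The AP-1 family then had 0 in both comparisons.

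Heat shock genes, another class known to respond to handling, had the largest medians of the 6 lists for SPI against CAS. Of 10 tested, 8 were on the higher side both for SPI against CAS (median 0.30) and for GEN against CAS (median 0.28), and 5 between SPI and GEN (median -0.02). At an unadjusted p under 0.05 there were 3, 2 and 0, all higher, and 0 adjusted calls in limma. The background shares of higher calls are those given for the other immediate early genes. Hspa1a, an inducible HSP70 chaperone, had 6403 ± 2408 on SPI (SD, n = 4), 6512 ± 816 on GEN (SD, n = 3) and 3592 ± 804 on CAS (SD, n = 3). Its log2 difference was 0.77 ± 0.28 (SE) for SPI against CAS (adjusted p = 0.987 in limma) and 0.88 ± 0.30 for GEN against CAS (adjusted p = 0.825). Hspb1, a small heat shock protein, had 5466 ± 1025 on SPI (SD, n = 4) and 3614 ± 390.4 on CAS (SD, n = 3), a log2 difference of 0.58 ± 0.15 (SE, adjusted p = 0.582 in limma). The summed signal of the 10 heat shock genes was 41402 on SPI 4 and 25413 on SPI 5, the extremes of that diet, 31259 to 33065 on GEN and 21982 to 26704 on CAS. CAS 3 had the lowest sum of all arrays. Without it the medians were 0.23 for SPI and 0.27 for GEN against CAS, with 8 and 7 of the 10 genes on the higher side. At an unadjusted p under 0.05 in limma there were then 2 and 0, all higher, where 1.83% and 2.39% of all probe sets were higher. Hspa1a was then at 0.56 for SPI and 0.68 for GEN, and Hspb1 at 0.54 for SPI. SPI 2, with the highest Fos, Egr2 and Atf3, had a sum of 32206.

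The genes whose pattern over the 10 arrays was most like the mean standardised signal of the 10 immediate early genes were Iqsec1 (r = 0.92), Pik3r4 (0.88), Zdhhc14 (0.87), Rars1 (0.86), Ric8a (0.86), Parva (0.85), Gatad2a (0.85), Aagab (0.85), Dgcr8 (0.85) and St3gal2 (0.84). All 10 had their highest signal on SPI 2, as the mean pattern did at 1.13 standard deviations, with the other arrays between -0.44 and 0.28. None of the 10 was on the lists of related genes. The members, each part of that mean, went with it unevenly. Their r was 0.87 for Fos, 0.80 for Atf3, 0.76 for Egr1, 0.73 for Jun and 0.69 for Egr2. It was 0.41 for Nr4a1 and for Dusp1, 0.25 for Junb, 0.19 for Fosb and -0.44 for Egr3. These correlations describe 10 arrays of which 1 stood apart, and the named genes among 9520 tested probe sets were searched.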

How the data were processed

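Pooled rat mammary gland RNA was measured on 10 Affymetrix RAE230 arrays. The authors deposited 1 table of signal intensity, which the submitters' processing notes credit to MAS5 with no version given here; MAS5 scales whole arrays, so total RNA differences are not visible. Groups came from sample titles. Control probe sets (57 of 15923) were left out, log2 of the signal, floored at 1, was used, and 9520 probe sets remained after the 40% with the dimmest mean were dropped. Gene symbols are those of GEO's platform annotation, brought up to date by Entrez identifier.

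Diets were compared in 1 fit of all 10 arrays with limma 3.58.1 in R 4.3.3 (lmFit, eBayes with trend), with Benjamini-Hochberg adjustment over the 9520 probe sets and a threshold of 0.05. Half-widths of 95% intervals of a log2 difference were 0.41 to 0.44 in the median; the number of arrays limits precision. Correlations used 100000 permutations, or all orders with fewer than 10 arrays, and were two-sided. Both tests were checked on simulated data. All member probe sets were named; list genes were named by smallest p, and like genes by highest correlation. Other filters, scalings, variance models and left-out arrays were tried as alternatives. Members and lists were chosen with earlier results of these data known.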

Additional observations from a re-analysis of the deposited data

How the results depend on the processing

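No member probe set passed an adjusted p of 0.05 in any of the 3 comparisons, or in the F-test over diets, under any alternative run: no filter or a filter at 20%, a floor of 16, quantile normalization, median centring, eBayes without trend, a plain test per probe set, the actin covariate, only the 2 diets compared, the replicate block, and each array left out (0 to 0 calls each). For the 13 probe sets tested in the main fit, the smallest adjusted p in limma was 0.293 over these alternatives. In the main fit itself it was 0.400. Of 780 alternative values of single probe sets, 48 turned in sign, each uncalled; the cause was not tested. With the replicate block the sign turned for SPI against CAS the second Jun probe set at 0.0086, Egr1 at 0.042, Atf3 at 0.078, and for GEN against CAS Fos at 0.15, Fosb at 0.035, Egr2 at 0.030, Atf3 at 0.13, and for SPI against GEN Fos at -0.065, the dimmest Jun probe set at 0.0072, Atf3 at -0.054. With median centring the sign turned for SPI against CAS Egr1 at 0.048, Atf3 at 0.054, the brighter Dusp1 probe set at 0.017, and for GEN against CAS Fos at 0.0018, and for SPI against GEN the dimmest Jun probe set at 0.022. With quantile normalization the sign turned for SPI against CAS Nr4a1 at -0.00063. With the actin ratio as a covariate the sign turned for GEN against CAS Fos at 0.044, and for SPI against GEN Fos at -0.020, the dimmest Jun probe set at 0.029. Leaving out single arrays turned the sign of others within these ranges. For SPI against CAS these were Fos (-0.10 to 0.17), Fosb (-0.050 to 0.19), the second Jun probe set (-0.30 to 0.074), Junb (-0.0094 to 0.15), Egr1 (-0.14 to 0.16), Atf3 (-0.21 to 0.080), the brighter Dusp1 probe set (-0.15 to 0.069), the dimmer Dusp1 probe set (-0.83 to 0.079). For GEN against CAS these were Fos (-0.037 to 0.027), Fosb (-0.17 to 0.074), the dimmest Jun probe set (-0.33 to 0.019), Junb (-0.11 to 0.052), Atf3 (-0.093 to 0.022), Nr4a1 (-0.065 to 0.032). For SPI against GEN these were Fos (-0.095 to 0.18), the second Jun probe set (-0.068 to 0.24), the dimmest Jun probe set (-0.25 to 0.13), the brightest Jun probe set (-0.11 to 0.11), Atf3 (-0.18 to 0.11). The count of 5 probe sets of high spread was 3 with no filter, 2 with median centring and 2 to 5 with arrays left out. The 3 genes correlated with Fos were 3 without CAS 3, 0 with quantile normalization, 0 with median centring, 0 for deviations from the diet means (where r was 0.75 to 0.83) and 0 to 4 with arrays left out. The count for the actin ratio was 0 with the brightest probe sets, 0 to 0 with arrays left out, and 1 with all 13 probe sets, chosen after the data were seen. The replicate numbers of the titles did not pair the arrays: same-numbered arrays of different diets had correlations of deviations of -0.18 to 0.16 in 6 pairs, 1 of them over 0.1. With that replicate block the count of member calls was 0, and Egr3 stood at -0.72 for SPI against GEN. Precision is limited by the number of arrays. For Egr3 and the dim probe sets of Fos and Egr2, it is also limited by signals near or below the filter.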
